A study of Rattus norvegicus with 17 samples.

Results

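The genes described here encode subunits of the voltage-gated sodium channels of rat sensory neurons, 6 pore-forming alpha subunits (Scn1a, Scn3a, Scn8a, Scn9a, Scn10a and Scn11a) and 3 accessory beta subunits (Scn2b, Scn3b and Scn4b). They were taken by name, as 9 of the 32883 gene rows of the count tables. Their levels were compared between 8 sets of neurons, called gates below, each defined by UMIs of the 1 or 2 genes that name it, and none of the 9 channel genes served in a gate. The cells came from the L4 and L5 dorsal root ganglia of both sides of naive adult SD (Sprague Dawley) rats, all males of 200 g, the only genotype and condition in the labels. Single neurons were drawn into a mouth pipette and their polyadenylated RNA was amplified by a modified form of Smart-seq2, in which 3′ ends are counted with an 8 nt unique molecular identifier (UMI), so UMI counts need no scaling for gene length. The labels list 17 batches with 1080 cells in all. The protocols describe a harvest after 15 min and one of neurons with neurites after 72 h in culture, from at least 5 rats per time point; the sources used here do not tie a batch to a time or to animals. The series was made to ask why subtypes of sensory neurons differ in how well their axons grow.

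Voltage-gated sodium channels open when the membrane depolarises and carry the rising phase of the action potential. An alpha subunit forms the pore, and beta subunits set its gating, its place in the membrane and its contacts with other proteins. In sensory neurons Scn9a encodes a channel that amplifies small depolarisations, Scn10a and Scn11a encode the tetrodotoxin-resistant channels typical of nociceptors, and Scn1a and Scn8a encode tetrodotoxin-sensitive channels, of which Scn8a is the main one at nodes of Ranvier. Scn3a is best known from embryonic neurons and from injured sensory neurons. Scn4b and Scn2b are disulfide-linked to alpha subunits, whereas Scn3b binds them without a covalent bond.

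To place the genes, the bases before their annotated starts were taken from RefSeq (GRCr8), which gave a promoter for 7 of the 9; Scn1a and Scn3b were not matched. In the order of GRCr8, Scn1a, Scn9a and Scn7a are neighbours on chromosome 3, where Scn3a also lies next to Scn2a. On chromosome 8, Scn10a and Scn11a have 1 uncharacterised gene between them, and Scn2b is next to Scn4b. Each promoter was searched on both strands for 5 motifs. The TATA box was searched as TATAAA and was present in 12.9% of 33360 rat promoters of the same length. The GC box was searched as CCGCCC and was present in 30.5% of them. The Runt core was searched as TGTGGT and was present in 14.5%, and the homeodomain core, searched as TAATNA, was present in 25.3%. The cAMP response element was searched as TGACGTCA and was present in 1.59%. The 4 sequences below are shown because Scn10a and Scn11a varied together over the gates, Scn3a varied against them, and Scn8a stands apart in base composition. Each holds 250 bases, 5′ to 3′ on the gene's own strand and ending at the base before the start, with motif matches in capitals; a match is a stretch of letters, not a shown binding site.
Scn10a: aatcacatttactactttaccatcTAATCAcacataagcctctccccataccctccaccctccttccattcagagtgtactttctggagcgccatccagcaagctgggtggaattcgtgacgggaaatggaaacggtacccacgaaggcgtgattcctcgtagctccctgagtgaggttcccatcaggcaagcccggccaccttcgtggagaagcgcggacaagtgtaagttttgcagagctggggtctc
Scn11a: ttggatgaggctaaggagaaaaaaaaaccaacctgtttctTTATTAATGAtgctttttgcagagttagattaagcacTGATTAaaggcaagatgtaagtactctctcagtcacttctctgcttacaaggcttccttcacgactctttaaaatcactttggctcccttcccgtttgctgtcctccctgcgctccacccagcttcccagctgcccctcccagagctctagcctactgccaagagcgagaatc
Scn3a: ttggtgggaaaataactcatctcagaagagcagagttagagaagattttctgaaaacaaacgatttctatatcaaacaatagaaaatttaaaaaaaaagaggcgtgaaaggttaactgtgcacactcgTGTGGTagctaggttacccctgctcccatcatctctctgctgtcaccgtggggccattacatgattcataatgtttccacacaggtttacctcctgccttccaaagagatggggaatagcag
Scn8a: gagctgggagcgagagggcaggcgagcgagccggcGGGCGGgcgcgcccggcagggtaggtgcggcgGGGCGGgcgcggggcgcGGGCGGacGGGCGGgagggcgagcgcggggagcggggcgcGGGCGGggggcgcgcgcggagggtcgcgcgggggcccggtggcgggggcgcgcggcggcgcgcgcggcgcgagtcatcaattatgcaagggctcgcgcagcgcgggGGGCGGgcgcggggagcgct

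The Scn10a promoter (chr8:128340299-128340548, minus strand, GRCr8) held 1 TAATNA match, at position -226 from the start. In that of Scn11a (chr8:128444719-128444968, minus strand) TAATNA matched at position -206 and, on the opposite strand, at -210 and -173, the first pair overlapping in 1 capital run. The Scn3a promoter (chr3:70666199-70666448, minus strand) had a TGTGGT match at -122. CCGCCC was found 6 times on the opposite strand of the Scn8a promoter (chr7:133860977-133861226, plus strand), where it reads GGGCGG. The 250 bases of Scn8a were 86.0% G or C with 53 CpG, against medians of 51.6% and 5 over all promoters, and 99.9% of promoters had a lower GC content. Scn10a, Scn11a and Scn3a had 53.2%, 46.4% and 41.6% G or C. Of the other 3 matched members, Scn2b held 1 TGTGGT match and Scn9a and Scn4b held none of the 5 motifs.

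Batch 21 carried the counts and cell names of batch 20, so 16 batches with 1040 cells were used, and no other cells had identical counts. Batch totals ran from 3812280 to 26065847 UMIs. A minimum of 2000 detected genes left 967 of the 1040 cells, whose UMIs ran from 4307 to 1514406 around a median of 139374. A kept cell entered a gate when each gate gene had at least 3 UMIs and their geometric mean reached 20 CPM (UMIs of the gene per 1000000 UMIs of the cell or sum), and 597 cells did. Of these, 189 (31.7%) met 2 or more gates and were placed in the gate with the higher mean log2 level; each cell had been picked by pipette, so doublets were not called. UMIs of a gate were summed within a batch where it held at least 3 cells. This gave 14 sums from Sst+Nppb cells (118 cells in the gate), 7 from Trpm8 cells (33), 15 from Clmp cells (225), 5 from Th cells (30), 14 from Ntsr1+Chrna3 cells (88), 10 from Gzmbl3+Lpar3 cells (64) and 6 from Nmu+Lad1 cells (31). Batches with fewer cells of a gate were left out, so the sums hold 20 of the 30 Th cells, 22 of the 31 Nmu+Lad1 cells and 25 of the 33 Trpm8 cells. Only 8 cells were Pvalb+Vsnl1, so their 6 sums hold 1 cell each except that of batch 27, which holds 3.

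The gates were checked against markers that did not define them. Neuronal markers summed to 5485 to 11750 CPM in every gate. Foxp2 and Cdh8, found in cold-sensing neurons, averaged 54.1 and 27.3 CPM in Trpm8 cells. The 5 listed markers of itch-sensing neurons did not single out Sst+Nppb cells. They summed to 82.6 CPM there, against 127 in Th, 92.8 in Pvalb+Vsnl1 and 81.7 in Trpm8 cells. Osmr (58.0 CPM) and Il31ra (5.26) were highest in Sst+Nppb cells. Nts was at 19.0 CPM there against 120 in Th cells, and Cysltr2 (0.175) and Htr1f (0.236) were also higher in other gates. The Pvalb+Vsnl1 cells carried neurofilament-class markers (Nefh, Spp1, Ntrk3 and Runx3) at a summed 1705 CPM against 156 to 428 elsewhere, as large myelinated neurons do. Their 9 glial markers summed to 2258 CPM (1812 to 3847) against 792 to 1102 in the other gates, and 1250 CPM of this was S100b, with Pmp22 at 764 CPM (603 to 844 elsewhere), Apoe at 139 (22.6 to 60.5), Sox10 at 14.1 (1.25 to 5.82) and Fabp7 at 1.28 (1.34 to 3.98). The gate gene of another gate, Clmp, also stood at 164 CPM in Pvalb+Vsnl1 cells. In Th cells the markers of C-low-threshold mechanoreceptors summed to 5.98 CPM with Slc17a8 and P2ry1 at 0 in all sums, so that class name is not used for them. Mrgprd, the defining receptor of one non-peptidergic class, was at most 0.198 CPM in any gate. Each gate was tested against the mean of the other gates with batch as a term, on the summed counts (edgeR quasi-likelihood test, Benjamini-Hochberg adjustment over all 12027 genes tested, or 11500 for Pvalb+Vsnl1 cells, called at an adjusted p under 0.05). All 9 channel genes passed the filter on low counts. The comparisons share sums, so they are not independent, and p-values measure only the spread between batches, which may be technical.

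Scn9a had the highest mean level of the 6 alpha subunits in each of the 8 gates. Over all kept cells of a batch, Scn9a lay between 173 and 304 CPM, Scn10a between 23.5 and 133, Scn11a between 13.7 and 115, Scn3a between 10.4 and 34.8, Scn8a between 1.73 and 11.7 and Scn1a between 0.469 and 14.9. Among beta subunits, Scn3b ran from 61.7 to 168 CPM, Scn4b from 40.8 to 135 and Scn2b from 0 to 6.25. The 370 kept cells outside all gates were shallow, with a median of 36470 UMIs. Their pooled levels were 244 CPM for Scn9a, 45.9 for Scn10a, 28.5 for Scn3a, 28.3 for Scn11a, 9.95 for Scn1a, 7.69 for Scn8a, 144 for Scn3b, 110 for Scn4b and 2.08 for Scn2b.

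**Figure D1:**
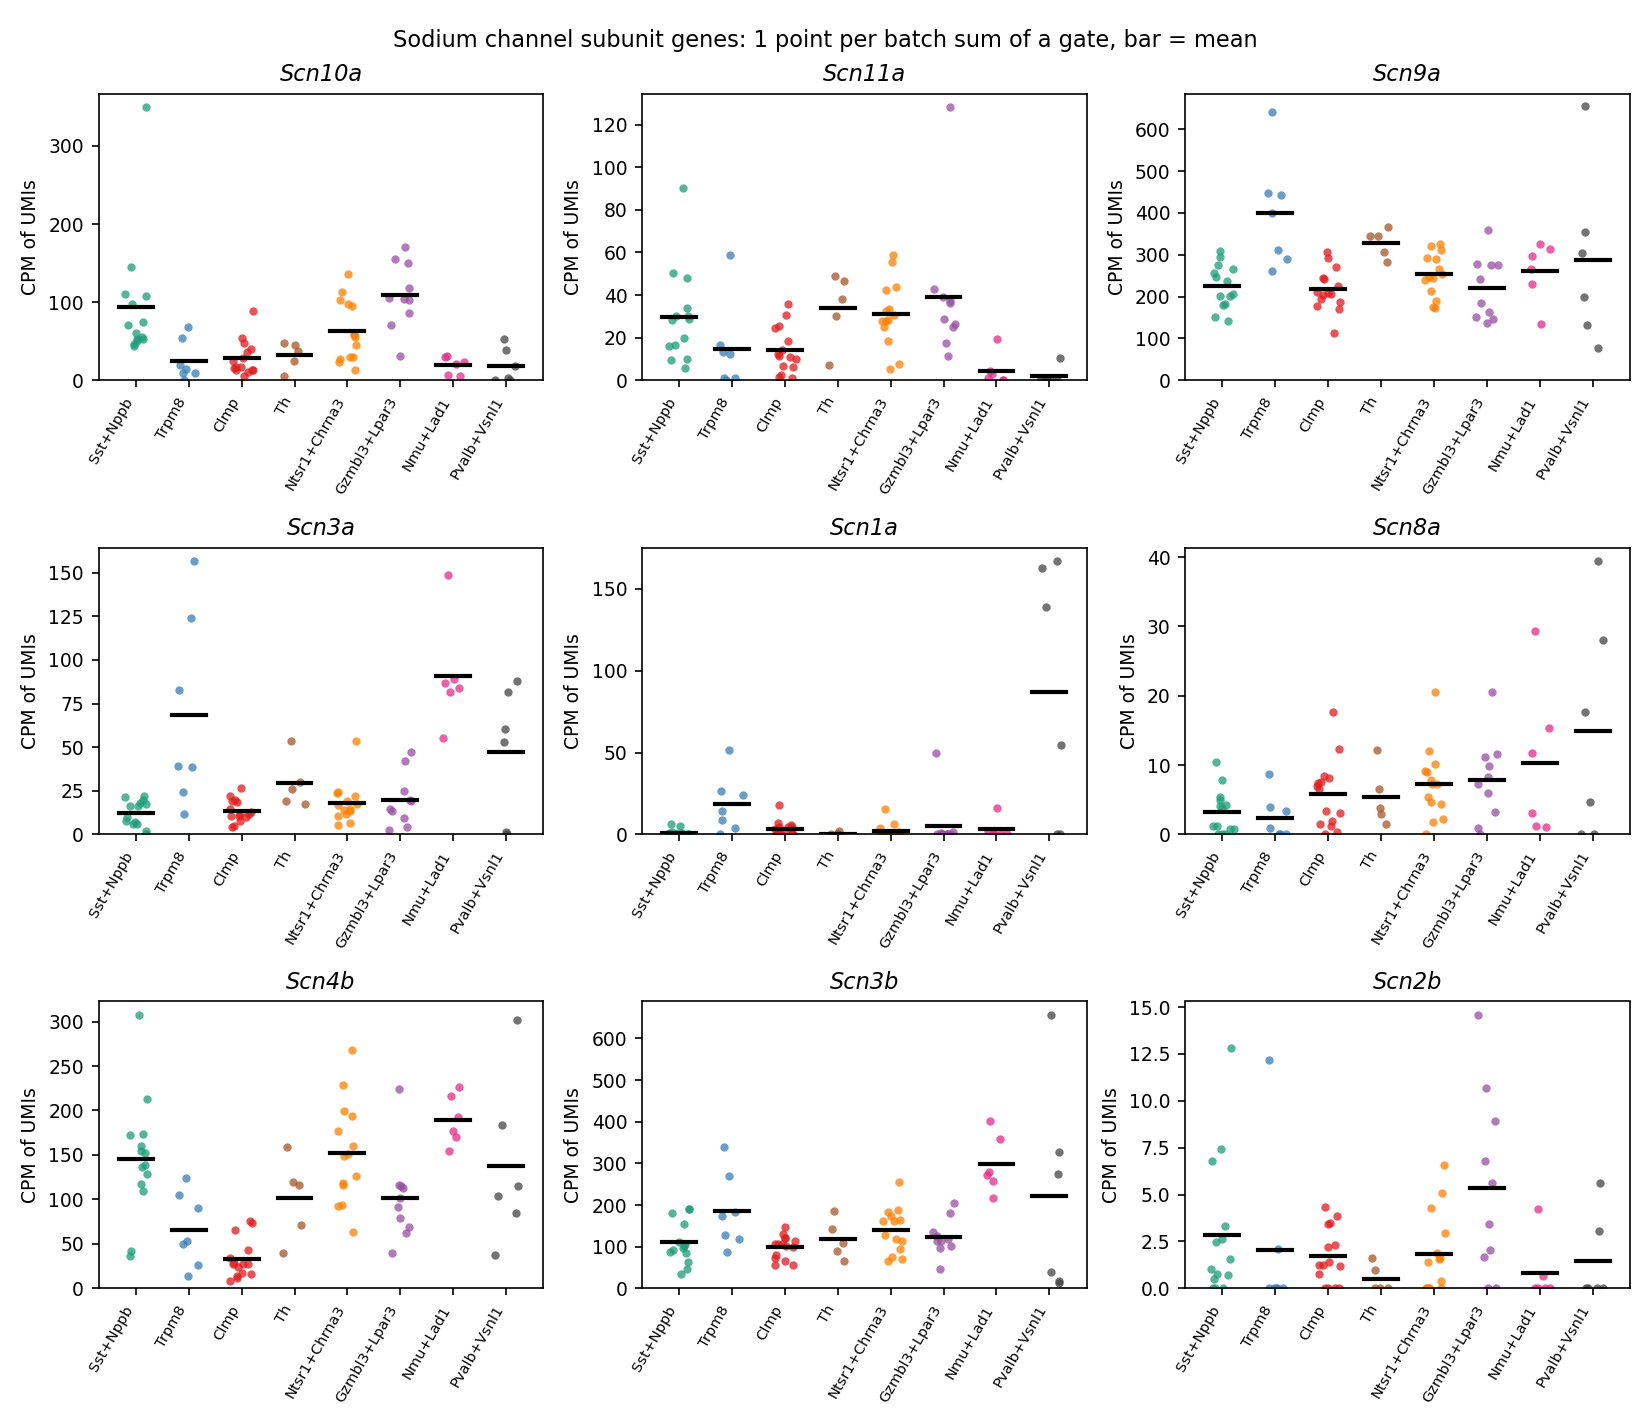
Level of each sodium channel subunit gene (CPM of UMIs, linear y axis per panel) in every batch sum of the 8 gates, with 1 point per batch sum and a bar at the mean. Scn10a points of Gzmbl3+Lpar3 cells reach 170 CPM while those of Nmu+Lad1 cells stay at or under 30.8, and Scn3a points of Nmu+Lad1 cells all lie above 53.3 CPM, the highest Ntsr1+Chrna3 sum.

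The nociceptor channel Scn10a was highest in Gzmbl3+Lpar3 cells, at 109 ± 42.1 CPM (SD, n = 10 batch sums; lowest 30.8, median 105, highest 170). It was 3.14-fold higher there than in the other gates (log2 fold change 1.65 ± 0.28 SE, edgeR adjusted p = 1.65e-05), in 8 of 10 batches. In Sst+Nppb cells, which express itch-related peptides, Scn10a stood at 94.1 ± 79.4 CPM (SD, n = 14; lowest 43.7, median 66.0, highest 350), and the test gave 1.16 ± 0.25 (edgeR adjusted p = 0.000589; 10 of 14 batches higher). Both sets of cells overlapped with Ntsr1+Chrna3 cells, whose 14 sums ran from 13.1 to 136 CPM around a mean of 63.1 ± 38.8. The Sst+Nppb call ended when cells that met 2 or more gates were left out (0.72, edgeR adjusted p = 0.201). It also ended when 5 cells per sum were required (0.44, edgeR adjusted p = 0.505). Both settings left too few sums of Trpm8, Th and Nmu+Lad1 cells. The reference there was Clmp, Ntsr1+Chrna3 and Gzmbl3+Lpar3 cells only, so these are not the same comparison.

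Scn10a was lower in 3 gates. In Nmu+Lad1 cells it stood at 7.30, 30.8, 21.2, 5.22, 23.7 and 29.7 CPM in batches 25, 26, 29, 30, 31 and 35, and all 6 were under the other gates of their batch (-1.39 ± 0.42, edgeR adjusted p = 0.0221). In Pvalb+Vsnl1 cells it was 39.0, 17.9, 52.7, 3.21, 0 and 0 CPM in batches 23, 27, 28-3, 29, 34 and 35 (-1.98 ± 0.68, edgeR adjusted p = 0.0426; 6 of 6 lower). Some of these sums thus carried as much Scn10a as sums of other gates, and others had no UMI of it. Clmp cells, in which Calca (a peptide of peptidergic nociceptors) was highest while Calcb was highest in Sst+Nppb and Tac1 in Trpm8 cells, had 28.5 ± 22.2 CPM (n = 15; lowest 6.11, median 17.7, highest 89.1; -0.76 ± 0.27, edgeR adjusted p = 0.0458; 13 of 15 lower). None of these 3 calls held throughout. The Clmp call was lost without any 1 of 11 of the 16 batches (-0.62 to -0.77, adjusted p up to 0.119) and without the batch term (adjusted p = 0.0715). Its value was -0.27 at a gate level of 50 CPM (edgeR adjusted p = 0.765). With at least 1 cell per sum, which brings Pvalb+Vsnl1 sums into the reference, it was -0.36 (edgeR adjusted p = 0.577). The Nmu+Lad1 call was lost without batch 25 (-1.15, adjusted p = 0.0843) or batch 30 (-1.13, adjusted p = 0.0978). It was also lost at 50 CPM, which left 3 Nmu+Lad1 sums (-1.70, edgeR adjusted p = 0.311), and after thinning each cell to 30000 UMIs (-1.39, edgeR adjusted p = 0.0508). For Pvalb+Vsnl1 cells the call was lost with RLE size factors (-1.77, adjusted p = 0.076), without the batch term (-1.91, adjusted p = 0.0729), and without batch 27, 29, 34 or 35 (adjusted p = 0.0715, 0.164, 0.153 and 0.113). Thinning gave -1.12 there (edgeR adjusted p = 0.363) and a gate level of 50 CPM -1.84 (edgeR adjusted p = 0.109). Trpm8 cells (25.0 ± 25.7 CPM, n = 7; -0.74, 95% interval -1.57 to 0.10) and Th cells (32.0 ± 17.5 CPM, n = 5; -0.50, interval -1.34 to 0.34) missed the threshold.

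Scn11a, whose channel carries a persistent current near the resting potential, was lower in Nmu+Lad1 and Pvalb+Vsnl1 cells. Nmu+Lad1 cells had 4.38, 1.06, 19.2, 0, 2.84 and 0 CPM in batches 25, 26, 29, 30, 31 and 35, and 6 of 6 batches were lower than the other gates (-2.65 ± 0.62, edgeR adjusted p = 0.00196). Pvalb+Vsnl1 cells held 2 UMIs of Scn11a in all, 1 in batch 28-3 and 1 in batch 27, and the other 4 sums were at 0. Pooled over cells this is 0.896 CPM, or 0.0368 times the mean of the other gates, with a counting interval from 0.00445 to 0.133 (exact Poisson, counting error only); the edgeR test gave an adjusted p of 0.00878. Without batch 29 that adjusted p was 0.0537. Raising the gate level to 50 CPM, which left 3 Nmu+Lad1 sums, ended the Nmu+Lad1 call (-0.39, edgeR adjusted p = 0.89). So did sums of at least 1 cell, with 6 Pvalb+Vsnl1 sums in the reference (-1.23, edgeR adjusted p = 0.153).

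In the other 6 gates the sums of Scn11a overlapped. Gzmbl3+Lpar3 cells averaged 39.3 ± 32.7 CPM (n = 10; lowest 11.6, median 32.5, highest 128), with the highest value from batch 24. The 5 sums of Th cells were 46.4, 38.1, 7.20, 48.9 and 30.2 CPM in batches 25, 26, 29, 32 and 34. Ntsr1+Chrna3 cells averaged 31.2 ± 15.4 CPM (n = 14) and Sst+Nppb cells 29.8 ± 21.9 CPM (n = 14). Trpm8 cells had 14.8 ± 20.7 CPM (n = 7) and Clmp cells 14.1 ± 10.8 CPM (n = 15; -0.47, edgeR adjusted p = 0.409). None of these passed the test, with adjusted p-values from 0.107 to 0.96, but several passed under other settings. Clmp cells were called lower with 5 cells per sum (-1.21, edgeR adjusted p = 0.00291) and with cells of 2 or more gates left out (-0.92, edgeR adjusted p = 0.0412). Neither setting had Trpm8, Th or Nmu+Lad1 cells in the reference. At a gate level of 50 CPM, Sst+Nppb cells were called higher (1.12, edgeR adjusted p = 0.0365) and Trpm8 cells, with 3 sums left, lower (-4.28, edgeR adjusted p = 0.0383). The difference in Gzmbl3+Lpar3 cells (0.82) passed without the batch term (1.11, adjusted p = 0.0165) and without batch 29 (1.16, adjusted p = 0.016), and that in Ntsr1+Chrna3 cells (0.83) passed without batch 25 (1.02, adjusted p = 0.0495) or batch 29 (1.08, adjusted p = 0.0316).

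**Figure D2:**
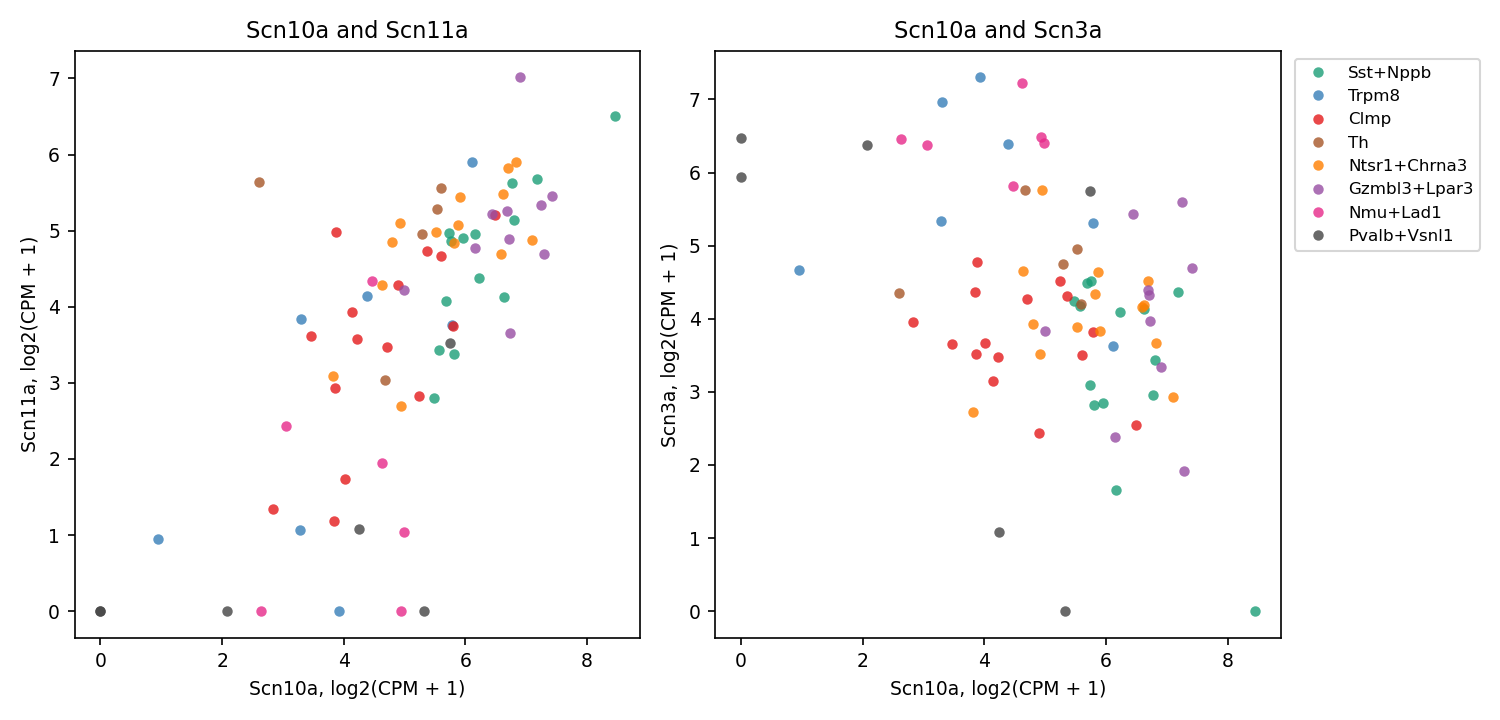
Scn10a against Scn11a (left) and against Scn3a (right), each axis log2(CPM + 1), with 1 point per batch sum coloured by gate (77 sums). Scn10a and Scn11a rise together from Nmu+Lad1 and Pvalb+Vsnl1 sums to Gzmbl3+Lpar3 sums, while the highest Scn3a values sit at low to middle Scn10a.

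Mean levels of Scn9a spanned 217 CPM in Clmp cells to 399 CPM in Trpm8 cells. The Trpm8 sums stood at 449, 289, 443, 641, 312, 261 and 399 CPM in batches 20, 25, 26, 28-1, 30, 31 and 34, 1.57-fold above the other gates (0.65 ± 0.14, edgeR adjusted p = 0.00177), and 7 of 7 were higher. Their lowest values overlapped with the upper values of each other gate. In Th cells Scn9a was 367, 306, 346, 282 and 345 CPM in batches 25, 26, 29, 32 and 34, higher than the other gates in 5 of 5 batches, but the test missed the threshold (0.33, edgeR adjusted p = 0.385). Clmp cells (217 ± 49.7 CPM, n = 15; lowest 113, median 209, highest 308) had a small deficit of -0.33 ± 0.11 (edgeR adjusted p = 0.0257; 12 of 15 lower). Gzmbl3+Lpar3 cells (221 ± 74.6 CPM, n = 10; lowest 138, median 213, highest 358) had one of -0.34 ± 0.13 (edgeR adjusted p = 0.049996; 6 of 10 lower). The Clmp deficit was not called without batch 20, 26, 27, 30 or 35 (adjusted p from 0.0506 to 0.063), and the Gzmbl3+Lpar3 deficit was not called with RLE size factors (-0.33, adjusted p = 0.0586) or without any 1 of 9 batches (-0.27 to -0.37, adjusted p up to 0.187). Of 13 settings that left out no batch, 6 ended the Clmp call and 7 the Gzmbl3+Lpar3 call. With 5 cells per sum the values were -0.15 and -0.40 (edgeR adjusted p = 0.272 and 0.0977). With cells of 2 or more gates left out they were -0.18 and -0.32 (edgeR adjusted p = 0.305 and 0.117). Neither of these settings had Trpm8, Th or Nmu+Lad1 cells in the reference. Values in Sst+Nppb (225 ± 52.2 CPM), Ntsr1+Chrna3 (253 ± 51.6), Nmu+Lad1 (261 ± 71.3) and Pvalb+Vsnl1 cells (288 ± 208) did not pass the test. The Trpm8 difference kept its call under each alternative and each left-out batch in which it was fitted.

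Scn3a, the subunit known from developing and injured neurons, was higher in Nmu+Lad1 and Trpm8 cells. It stood at 81.8, 83.9, 55.5, 86.7, 149 and 89.0 CPM in the Nmu+Lad1 sums of batches 25, 26, 29, 30, 31 and 35, 3.68-fold over the other gates (1.88 ± 0.31, edgeR adjusted p = 1.48e-05; 6 of 6 higher). Each of these was above the highest sum of Sst+Nppb (21.9 CPM), Clmp (26.5), Ntsr1+Chrna3 (53.3) and Gzmbl3+Lpar3 cells (47.3). The Trpm8 sums were 24.3, 11.4, 82.9, 157, 38.7, 124 and 39.4 CPM in batches 20, 25, 26, 28-1, 30, 31 and 34 (1.35 ± 0.33, edgeR adjusted p = 0.00512; 6 of 7 higher), so they ranged from Clmp-like values to the highest of all. The highest values, of batches 28-1 and 31, came from the shallowest Trpm8 sums, with 70217 and 226092 UMIs of all genes. Pooled over its sums, Trpm8 stood at 41.4 CPM, under the mean of 68.2 CPM. The Trpm8 call was lost without batch 31 (1.10, edgeR adjusted p = 0.0613) and after thinning (1.45, edgeR adjusted p = 0.0672). The Nmu+Lad1 call was lost at a gate level of 50 CPM, with 3 sums left (1.43, edgeR adjusted p = 0.076).

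The lowest Scn3a levels were in Sst+Nppb cells, 12.1 ± 7.36 CPM (n = 14; lowest 0, median 12.9, highest 21.9; -1.07 ± 0.28, edgeR adjusted p = 0.00592; 12 of 14 lower), and Clmp cells, 13.6 ± 6.30 CPM (n = 15; lowest 4.44, median 11.7, highest 26.5; -1.05 ± 0.25, edgeR adjusted p = 0.002; 13 of 15 lower). With 5 cells per sum the values were 0.48 in Sst+Nppb and -0.11 in Clmp cells (edgeR adjusted p = 0.505 and 0.816). With cells of 2 or more gates left out they were 0.09 and -0.09 (edgeR adjusted p = 0.959 and 0.916). Neither setting had Trpm8, Th or Nmu+Lad1 cells in the reference. With the single Pvalb+Vsnl1 sum of 3 cells kept the values were -0.43 and -0.40. Pvalb+Vsnl1 cells had 47.4 ± 38.5 CPM (n = 6), Th cells 29.2 ± 14.4 (n = 5), Gzmbl3+Lpar3 cells 19.7 ± 14.9 (n = 10) and Ntsr1+Chrna3 cells 18.0 ± 11.7 (n = 14), none of which passed.

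Scn1a was highest in Pvalb+Vsnl1 cells. Their sums of batches 23, 27, 28-3, 29, 34 and 35 stood at 0, 139, 0, 167, 54.6 and 163 CPM, from 281 UMIs (6.09 ± 0.92, edgeR adjusted p = 4.68e-07; 4 of 6 higher). The 2 sums at 0 were single cells with 76946 and 94848 UMIs. In the other 4 sums Scn1a exceeded every sum of at least 3 cells of every other gate. Of these 4 only the sum of batch 27 held more than 1 cell. The highest single cell of another gate ran from 27.9 CPM (Ntsr1+Chrna3) to 100 CPM (Gzmbl3+Lpar3), a range that includes the 54.6 CPM of batch 34. The higher S100b, Apoe, Sox10 and Clmp of Pvalb+Vsnl1 cells, given above, moved with their higher Scn1a, and their part in it was not tested. Trpm8 cells came next, at 24.3, 0, 51.4, 14.2, 3.87, 26.5 and 8.75 CPM in batches 20, 25, 26, 28-1, 30, 31 and 34 (4.36 ± 1.06, edgeR adjusted p = 0.00461; 6 of 7 higher). That call was lost without batch 20 (3.70, edgeR adjusted p = 0.0522). It was also lost when sums of at least 1 cell were taken, which brought 6 Pvalb+Vsnl1 sums into the reference (1.6, edgeR adjusted p = 0.223). With the single Pvalb+Vsnl1 sum of 3 cells kept the value was 3.03. The mean was 5.19 CPM in Gzmbl3+Lpar3 cells, where batch 25 alone held 59 of 66 UMIs, and without that batch Scn1a was called lower there (-2.98, adjusted p = 0.0439). Means were 3.31 CPM in Clmp, 3.00 in Nmu+Lad1, 2.22 in Ntsr1+Chrna3 and 1.05 in Sst+Nppb cells. The 5 sums of Th cells held 2 UMIs, 0.337 CPM when pooled, or 0.0662 times the mean of the other 6 gates of that test with a counting interval from 0.00802 to 0.239. The test across genes missed the threshold (edgeR adjusted p = 0.451).

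Scn8a was called in no gate by the edgeR test. It was called higher in Pvalb+Vsnl1 cells with bias-adjusted deviance (1.78, adjusted p = 0.0267) and lower in Sst+Nppb cells with at least 1 cell per sum (-1.45, adjusted p = 0.0459). Its mean was 15.0 ± 16.3 CPM in Pvalb+Vsnl1 cells (n = 6), 10.3 ± 11.1 in Nmu+Lad1 (n = 6), 7.87 ± 6.03 in Gzmbl3+Lpar3 (n = 10), 7.26 ± 5.12 in Ntsr1+Chrna3 (n = 14), 5.75 ± 4.88 in Clmp (n = 15), 5.39 ± 4.25 in Th (n = 5), 3.18 ± 3.22 in Sst+Nppb (n = 14) and 2.41 ± 3.23 in Trpm8 cells (n = 7). At these levels a Trpm8 sum held few or no UMIs of the gene, 15 in all 7 sums. The intervals of the differences were wide, from -0.04 to 2.65 on the log2 scale in Pvalb+Vsnl1 cells and from 0.11 to 2.58 in Nmu+Lad1 cells (edgeR adjusted p = 0.224 and 0.161).

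Among the beta subunits, Scn4b had its lowest mean in Clmp cells. Its 15 Clmp sums ran from 8.15 CPM to 75.9 with a median of 27.3 and a mean of 32.8 ± 22.1, 0.273 times the other gates (-1.87 ± 0.21, edgeR adjusted p = 3.43e-10; 14 of 15 lower). Every other gate except Nmu+Lad1 also had a sum inside this range, with lowest sums from 14.2 CPM in Trpm8 to 62.9 CPM in Ntsr1+Chrna3 cells. Nmu+Lad1 cells had 177, 217, 193, 155, 171 and 226 CPM in batches 25, 26, 29, 30, 31 and 35 (0.99 ± 0.25, edgeR adjusted p = 0.00444; 6 of 6 higher), every sum above the highest of Clmp cells. Sst+Nppb cells had 146 ± 66.7 CPM (n = 14; lowest 36.5, median 146, highest 308; 0.78 ± 0.18, edgeR adjusted p = 0.00171; 12 of 14 higher), with 2 sums inside the Clmp range. Ntsr1+Chrna3 cells had 153 ± 56.9 CPM (n = 14; lowest 62.9, median 150, highest 268; 0.62 ± 0.18, edgeR adjusted p = 0.0441; 11 of 14 higher). This last call was lost without any 1 of 9 batches (0.55 to 0.66, edgeR adjusted p up to 0.129) and at a gate level of 10 CPM (0.46, edgeR adjusted p = 0.136). The Nmu+Lad1 call was lost at 50 CPM, with 3 sums left (1.24, edgeR adjusted p = 0.0995). Pvalb+Vsnl1 (138 ± 93.4 CPM), Gzmbl3+Lpar3 (101 ± 50.2), Th (101 ± 46.2) and Trpm8 cells (66.1 ± 41.1) were not called.

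Scn3b was highest in Nmu+Lad1 cells, at 402, 280, 216, 273, 359 and 258 CPM in the same 6 batches (1.17 ± 0.19, edgeR adjusted p = 8.01e-06; 6 of 6 higher), 2.24-fold over the other gates. Each of these exceeded the highest Clmp sum, 147 CPM. Clmp cells were lowest, at 99.0 ± 27.2 CPM (n = 15; lowest 55.8, median 107; -0.53 ± 0.14, edgeR adjusted p = 0.00613; 13 of 15 lower), but that value was 0.02 with cells of 2 or more gates left out (adjusted p = 0.963), -0.27 after thinning (adjusted p = 0.189), -0.22 with 5 cells per sum (adjusted p = 0.226) and -0.15 with the single Pvalb+Vsnl1 sum of 3 cells kept (adjusted p = 0.683). When cells of 2 or more gates were left out, or 5 cells per sum required, the reference held no Trpm8, Th or Nmu+Lad1 cells. At a gate level of 50 CPM, with 3 sums left, the Nmu+Lad1 value was 1.00 (edgeR adjusted p = 0.0622). Means in the other gates were 221 ± 254 CPM in Pvalb+Vsnl1, 186 ± 90.2 in Trpm8, 139 ± 53.9 in Ntsr1+Chrna3, 124 ± 44.0 in Gzmbl3+Lpar3, 118 ± 46.8 in Th and 111 ± 50.6 in Sst+Nppb cells. The 6 Pvalb+Vsnl1 sums spread from 12.1 to 657 CPM.

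Scn2b, the rarest member, was called in 1 gate. Gzmbl3+Lpar3 cells had 5.37 ± 4.87 CPM (n = 10; lowest 0, median 4.54, highest 14.6; 2.21 ± 0.69, edgeR adjusted p = 0.0181; 7 of 10 higher). The call was lost without batch 29 (2.08, edgeR adjusted p = 0.0549) or batch 31 (1.98, edgeR adjusted p = 0.0756). It was also lost with 5 cells per sum (1.84, edgeR adjusted p = 0.275), where the reference held no Trpm8, Th or Nmu+Lad1 cells. With the single Pvalb+Vsnl1 sum of 3 cells kept the value was 2.06. Elsewhere means ran from 0.520 CPM in Th cells to 2.87 CPM in Sst+Nppb cells, with UMIs missing from 5 of 7 Trpm8 sums.

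**Figure D3:**
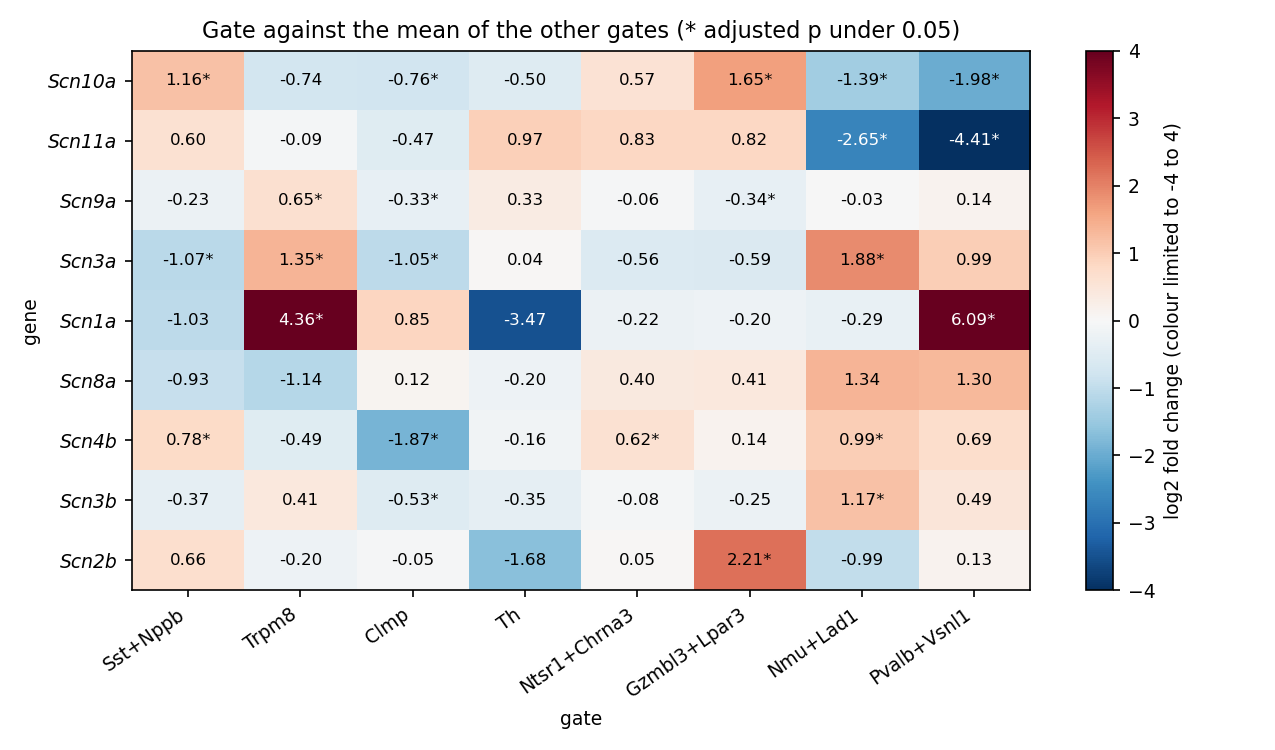
Log2 fold change of each gene (vertical axis) in each gate (horizontal axis) against the mean of the other gates, written in each cell, with a star at an adjusted p under 0.05 and colour limited to -4 to 4. Of the 72 values 23 carry a star, none of them in Th cells or in Scn8a.

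Read by gate, the channel genes called can be set against the share of all tested genes called there. In Sst+Nppb cells 2 of 9 were higher (Scn10a and Scn4b) and 1 lower (Scn3a), where 7.77% of all genes were higher and 4.19% lower, and the median log2 fold change was -0.23 for the 9 genes and 0.01 for all genes. Trpm8 cells had 3 higher (Scn1a, Scn3a and Scn9a) and 0 lower, with 5.14% and 4.6% of all genes called and medians of -0.09 and -0.05. No channel gene was lower in Trpm8 cells at an unadjusted p under 0.05 in edgeR either, and DESeq2 called 0. Other settings did call some lower there. With no filter on low counts these were Scn10a (-0.75, edgeR adjusted p = 0.031) and Scn4b (-0.52, edgeR adjusted p = 0.0432). Scn4b was also called lower after thinning (-1.17, edgeR adjusted p = 0.0422) and with at least 1 cell per sum (-1.05, edgeR adjusted p = 0.00488). Scn11a was called lower at a gate level of 50 CPM, with 3 sums left (-4.28, edgeR adjusted p = 0.0383). Clmp cells had 5 lower (Scn4b, Scn3a, Scn3b, Scn9a and Scn10a) and 0 higher, against 5.85% and 8.25% of all genes, with medians of -0.47 and 0.05; 0 were higher at an unadjusted p in edgeR and 0 by DESeq2. The split of all genes in Clmp cells was 992 higher and 704 lower with edgeR, and 963 higher and 1029 lower with DESeq2.

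In Th cells 0 of 9 genes were called in either direction. Only 0.283% of all genes were called higher there and 0.249% lower (34 and 30 genes with edgeR, 54 and 95 with DESeq2), and the medians were -0.20 and 0.00. At an unadjusted p under 0.05 edgeR gave Scn9a and Scn11a as higher and 0 as lower, and DESeq2 called 0. In Ntsr1+Chrna3 cells 1 was higher (Scn4b) and 0 lower, with 2.02% and 0.964% of all genes and medians of 0.05 and 0.04; Scn3a was lower at an unadjusted p in edgeR, and DESeq2 called 0 lower. Gzmbl3+Lpar3 cells had 2 higher (Scn10a and Scn2b) and 1 lower (Scn9a), with 10.2% and 7.24% of all genes and medians of 0.14 and 0.02. In Nmu+Lad1 cells 3 were higher (Scn3a, Scn3b and Scn4b) and 2 lower (Scn10a and Scn11a), with 6.4% and 5.59% of all genes and medians of -0.03 for both. Pvalb+Vsnl1 cells had 1 higher (Scn1a) and 2 lower (Scn11a and Scn10a), with 5.3% and 6.03% of all genes and medians of 0.49 and -0.01. There the split of all genes was 610 higher and 693 lower with TMM factors, 932 and 466 with RLE factors, which shifted the median of all genes by 0.14, and 1054 and 619 with DESeq2.

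Of the 23 calls over all gates, 5 held under every alternative and every left-out batch in which they could be fitted, those of Scn4b in Sst+Nppb and Clmp, Scn9a in Trpm8, Scn10a in Gzmbl3+Lpar3 and Scn1a in Pvalb+Vsnl1 cells.

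Each pair of gates was also compared, 28 pairs for each gene. Over all genes, 9.69% of gene-by-pair tests were called, the median gene was called in 1 pair and the 90th percentile was 8 pairs. Scn11a was called in 13 pairs, Scn10a in 12, Scn3a and Scn4b in 10 each, Scn1a in 9, Scn3b in 7, Scn9a in 5, Scn8a in 1 and Scn2b in 0. For Scn2b, 4 pairs had an unadjusted p under 0.05 in edgeR and DESeq2 called 0. In the order of mean levels, Scn10a ran from Gzmbl3+Lpar3 through Sst+Nppb, Ntsr1+Chrna3, Th, Clmp, Trpm8 and Nmu+Lad1 to Pvalb+Vsnl1 cells, and no neighbours in that order differed. On the log2 scale, Clmp minus Gzmbl3+Lpar3 cells gave -2.06 ± 0.35 (edgeR adjusted p = 6.26e-06) and Gzmbl3+Lpar3 minus Nmu+Lad1 cells 2.6 ± 0.49 (edgeR adjusted p = 0.000197).

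Scn11a ran from Gzmbl3+Lpar3 through Th, Ntsr1+Chrna3, Sst+Nppb, Trpm8 and Clmp to Nmu+Lad1 and Pvalb+Vsnl1 cells. Of its neighbours, Clmp and Nmu+Lad1 cells differed, by 1.87 ± 0.64 (edgeR adjusted p = 0.0402). All 13 called pairs of Scn11a except Clmp against Ntsr1+Chrna3 (-1.11 ± 0.38, edgeR adjusted p = 0.0408) involved Nmu+Lad1 or Pvalb+Vsnl1 cells. Scn1a was called between Pvalb+Vsnl1 cells and each of the other 7 gates, including the next in order, Trpm8 cells (3.93 ± 1.26, edgeR adjusted p = 0.0368). The step from Trpm8 to Gzmbl3+Lpar3 cells missed the threshold (3.91 ± 1.54, edgeR adjusted p = 0.0701).

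All 5 called pairs of Scn9a set Trpm8 cells against another gate (Clmp, Gzmbl3+Lpar3, Sst+Nppb, Ntsr1+Chrna3 and Nmu+Lad1), by 0.58 to 0.85. The 10 pairs of Scn3a set Nmu+Lad1, Trpm8 or Pvalb+Vsnl1 cells above Sst+Nppb, Clmp, Ntsr1+Chrna3 or Gzmbl3+Lpar3 cells. For Scn4b, Clmp cells were below each of the other 7 gates, including their neighbour in the order, Trpm8 cells (1.18 ± 0.31, edgeR adjusted p = 0.0203). Of the 7 pairs of Scn3b, 5 had Nmu+Lad1 cells above another gate. The single pair of Scn8a was Sst+Nppb below Pvalb+Vsnl1 cells (-2.41 ± 0.77, edgeR adjusted p = 0.0273). No neighbours in the order differed for Scn3a, Scn8a, Scn9a, Scn2b and Scn3b.

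As a share of the UMIs of the 6 alpha genes, Scn9a made up 55.0% (Gzmbl3+Lpar3 cells) to 77.1% (Clmp cells). The 2 tetrodotoxin-resistant channels, Scn10a and Scn11a, together gave 36.9% ± 10.6 in Gzmbl3+Lpar3 (SD, n = 10), 31.4% ± 12.1 in Sst+Nppb (n = 14) and 24.7% ± 11.8 in Ntsr1+Chrna3 cells (n = 14). They gave 15.3% ± 4.99 in Th (n = 5), 14.7% ± 8.37 in Clmp (n = 15), 9.98% ± 13.8 in Pvalb+Vsnl1 (n = 6), 8.68% ± 10.6 in Trpm8 (n = 7) and 6.19% ± 3.07 in Nmu+Lad1 cells (n = 6). The Gzmbl3+Lpar3 sums (21.2% to 54.7%) did not overlap with the Nmu+Lad1 sums (1.33% to 9.78%). Scn3a held 23.8% ± 6.90 of these UMIs in Nmu+Lad1 cells, 12.3% ± 8.98 in Trpm8 cells and 3.66% to 9.08% in the other gates. Scn1a held 16.9% ± 17.2 in Pvalb+Vsnl1 cells and 3.40% in Trpm8 cells. Another alpha subunit, Scn2a, stood at mean levels from 21.5 CPM in Gzmbl3+Lpar3 to 54.5 CPM in Trpm8 cells and is not in these shares. Summed levels of the 6 alpha genes ran from 282 CPM in Clmp cells to 528 CPM in Trpm8 cells.

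Of the UMIs of the 3 beta subunits, Scn4b held 23.7% ± 11.8 in Clmp and 27.6% ± 17.9 in Trpm8 cells, against 39.3% ± 7.32 in Nmu+Lad1 and 55.2% ± 13.7 in Sst+Nppb cells. Scn3b held most of the rest, 75% ± 11.9 in Clmp and 71.1% ± 17.5 in Trpm8 cells. Summed beta levels ran from 133 CPM in Clmp cells to 488 ± 63.5 CPM in Nmu+Lad1 cells. These shares are descriptions with no test.

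**Figure D4:**
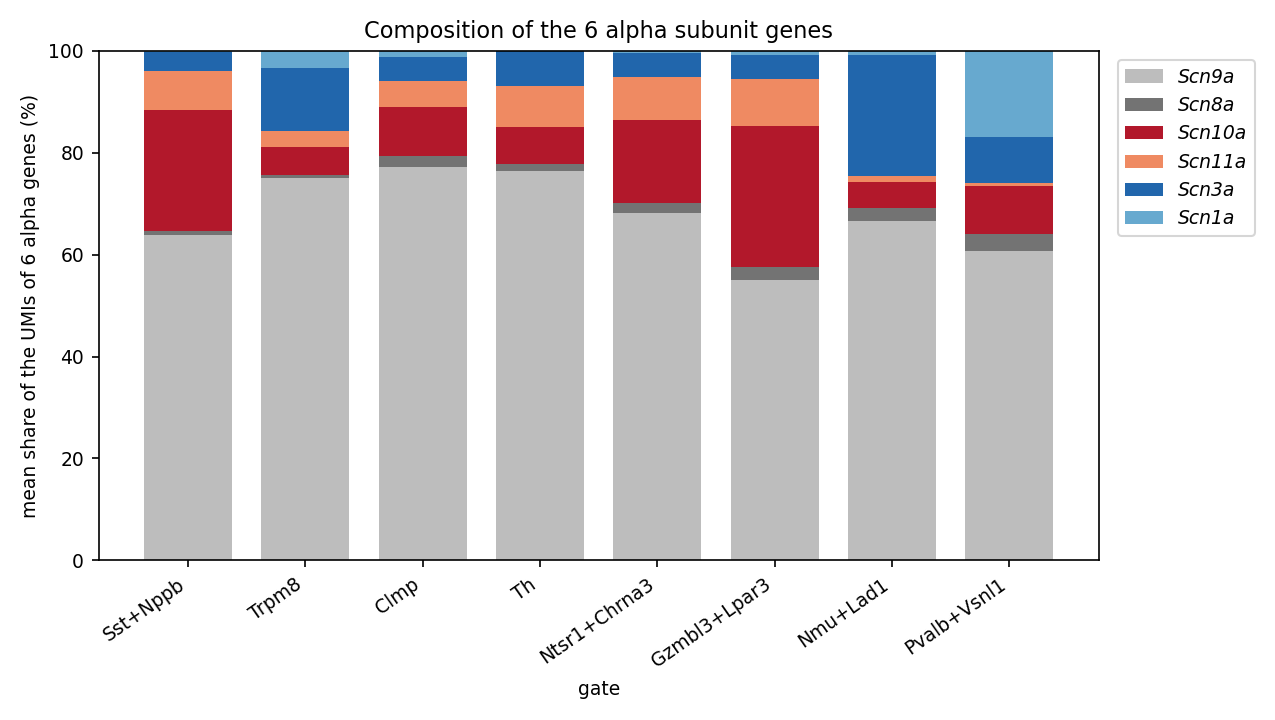
Mean share of each alpha subunit gene (percent of the UMIs of the 6 alpha genes, y axis) in each gate, averaged over its batch sums and stacked to 100. Scn10a and Scn11a (red and orange) take 36.9% in Gzmbl3+Lpar3 cells and 6.19% in Nmu+Lad1 cells, where Scn3a (dark blue) takes 23.8%.

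Levels of a sum can come from many cells with few UMIs or from few cells with many, so cells were thinned to 30000 UMIs each (771 kept cells were deep enough) and those with at least 1 UMI counted. Gates differed in depth, with a median of 169153 UMIs per cell in Sst+Nppb and 384997 in Gzmbl3+Lpar3 cells. After thinning, 52 of 64 Gzmbl3+Lpar3 cells had a Scn10a UMI (81.2%, exact 95% interval 69.5% to 89.9%; 96.9% unthinned). The share was 67% (57.2% to 75.8%) in Sst+Nppb, 58.0% (47.0% to 68.4%) in Ntsr1+Chrna3, 32.3% (16.7% to 51.4%) in Nmu+Lad1 and 28.9% (22.9% to 35.5%; 68.0% unthinned) in Clmp cells. Scn11a was seen in 53.1% (40.2% to 65.7%) of Gzmbl3+Lpar3 and 12.9% (3.63% to 29.8%) of Nmu+Lad1 cells. It was seen in 0 of 8 Pvalb+Vsnl1 cells, which allows a share of up to 37.5%, and in 2 of 8 unthinned (25%, 3.19% to 65.1%). The intervals cover counting error over cells pooled from the batches.

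Scn3a UMIs were found in 64.5% (45.4% to 80.8%) of Nmu+Lad1 cells after thinning (90.3% unthinned), 46.7% (28.3% to 65.7%) of Trpm8 cells, 21.7% (14.3% to 30.8%) of Sst+Nppb cells and 21.8% (16.4% to 28.0%) of Clmp cells. Scn1a was seen in 6 of 8 Pvalb+Vsnl1 cells (75%, 34.9% to 96.8%, the same unthinned) and 16.7% (5.64% to 34.7%) of Trpm8 cells; in Th cells it was seen in 0 of 28 after thinning, which allows up to 10.7% (3 of 28), and in 3 of 30 unthinned (10%, 2.11% to 26.5%). All 31 Nmu+Lad1 cells had a Scn4b UMI (100%, 88.8% to 100%), against 38.4% (31.8% to 45.3%) of Clmp cells (76.0% unthinned). Scn9a was seen in 93.4% to 100% of the cells of every gate and Scn3b in 62.5% to 96.8%. Scn8a was seen in 5.66% to 50% and Scn2b in 0% to 13.6%. Single cells still varied widely within a gate: in Gzmbl3+Lpar3 cells the median Scn10a level was 91.5 CPM with a 10th percentile of 19.8 and a 90th of 201.

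**Figure D5:**
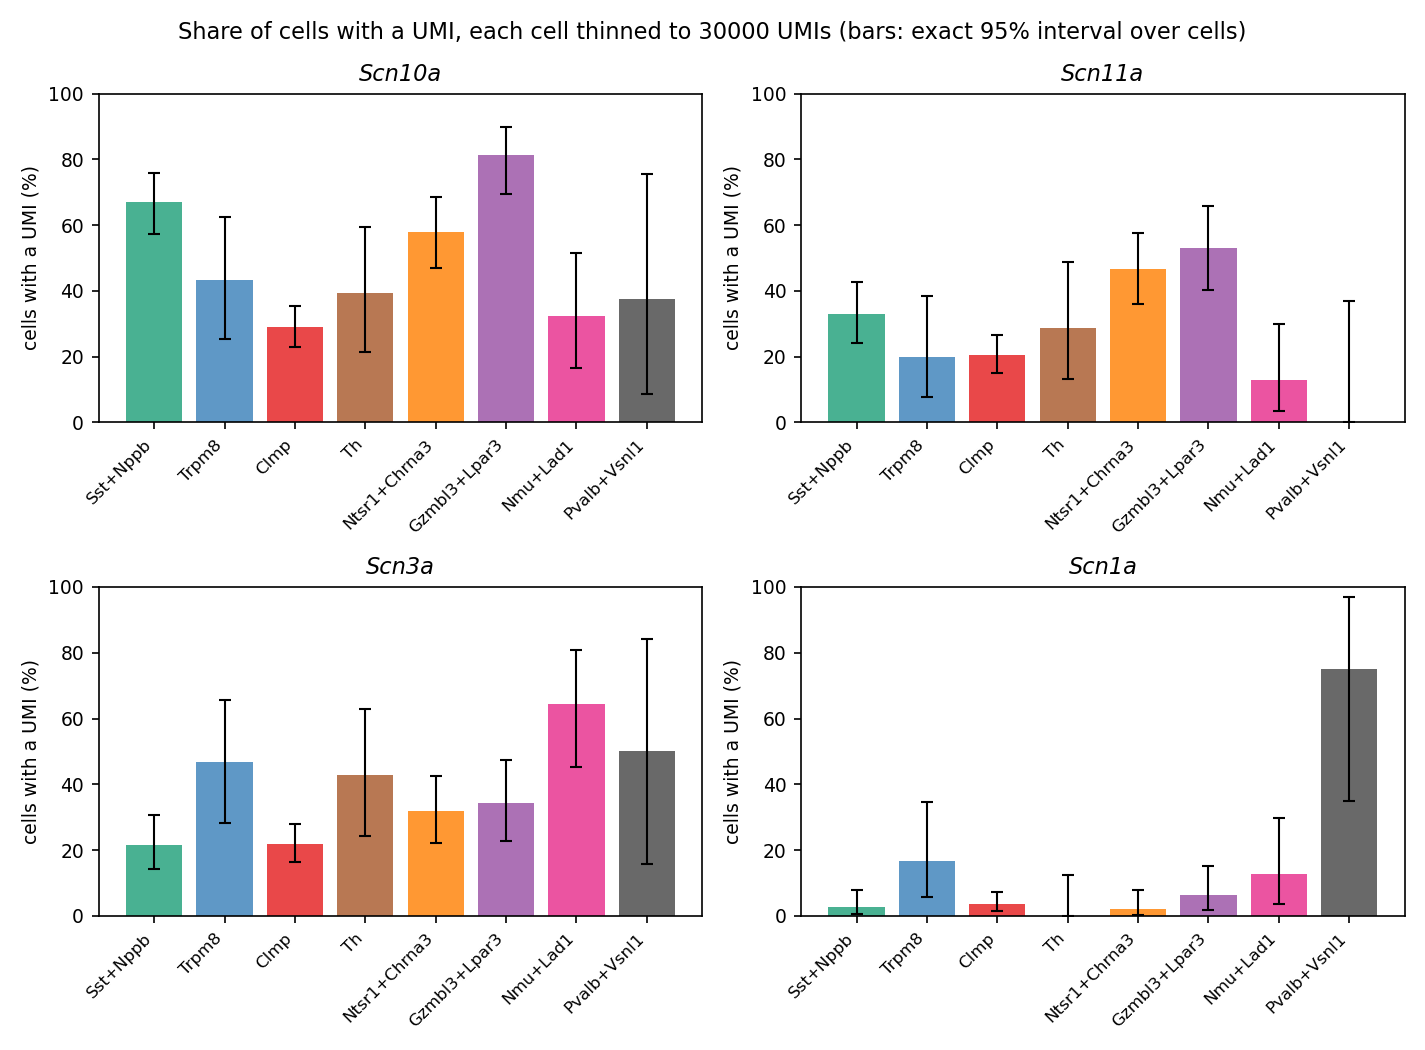
Share of cells with at least 1 UMI (percent, y axis) of Scn10a, Scn11a, Scn3a and Scn1a in each gate, after thinning each cell to 30000 UMIs, with exact 95% binomial intervals over cells. Scn10a reaches 81.2% in Gzmbl3+Lpar3 cells, Scn3a 64.5% in Nmu+Lad1 cells and Scn1a 75% in Pvalb+Vsnl1 cells.

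Sodium channels act in a complex with fibroblast growth factor homologous factors, ankyrins, adhesion molecules, kinases and ubiquitin ligases, and share the membrane with potassium channels. Of 38 genes around the channels listed with earlier results of these data known, 33 were tested. The numbers called higher and lower were 4 and 3 in Sst+Nppb, 7 and 2 in Trpm8, 3 and 5 in Clmp, 0 and 0 in Th, 2 and 0 in Ntsr1+Chrna3, 2 and 4 in Gzmbl3+Lpar3, 4 and 1 in Nmu+Lad1 and 4 and 2 in Pvalb+Vsnl1 cells. The shares of all genes called higher and lower were 7.77% and 4.19%, 5.14% and 4.6%, 8.25% and 5.85%, 0.283% and 0.249%, 2.02% and 0.964%, 10.2% and 7.24%, 6.4% and 5.59%, and 5.3% and 6.03% in the same order of gates. List medians lay between -0.20 and 0.23 on the log2 scale, against -0.05 to 0.05 for all genes. Pdzd2, a scaffold protein, was higher in Pvalb+Vsnl1 cells (2.42 ± 0.78, edgeR adjusted p = 0.0295). Nedd4l, a ubiquitin ligase, and the adhesion molecule Nrcam were lower there (-0.86 and -0.85, edgeR adjusted p = 0.0468 and 0.0274). Pdzd2 was also higher in Clmp cells (1.72, edgeR adjusted p = 0.0203).

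Cntn1, a contactin that raises channel density at the surface, was higher in Nmu+Lad1 cells (235 CPM against 56.5; 2.37 ± 0.35, edgeR adjusted p = 1.52e-06) and Trpm8 cells (1.36, edgeR adjusted p = 0.0116). It was lower in Sst+Nppb (25.0 CPM against 91.5; -1.53, edgeR adjusted p = 0.000532) and Gzmbl3+Lpar3 cells (-1.33, edgeR adjusted p = 0.00655). Kcna1, a potassium channel that limits repetitive firing, was higher in Nmu+Lad1 (1.48, edgeR adjusted p = 4.81e-05), Sst+Nppb (0.89, edgeR adjusted p = 0.00113) and Ntsr1+Chrna3 cells (0.84, edgeR adjusted p = 0.00768). It was lower in Trpm8 (-1.78, edgeR adjusted p = 0.000778) and Clmp cells (-1.26, edgeR adjusted p = 1.06e-05), the 2 gates with the lowest mean Scn4b. Of the kinase genes, Mapk14 was lower in Trpm8 (-0.67, edgeR adjusted p = 0.00181) and higher in Ntsr1+Chrna3 cells (0.38, edgeR adjusted p = 0.00993), and Prkca was lower in Clmp (-1.01, edgeR adjusted p = 4.46e-05) and higher in Gzmbl3+Lpar3 cells (0.91, edgeR adjusted p = 0.000671).

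Of the homologous factors, Fgf12 was higher (0.56, edgeR adjusted p = 0.0137) and Fgf13 lower (-1.08, edgeR adjusted p = 0.000571) in Gzmbl3+Lpar3 cells. Tmem233, a small membrane protein that interacts with Scn9a channels, was higher in Sst+Nppb cells (11.3 CPM against 2.42; 2.18 ± 0.64, edgeR adjusted p = 0.0167), where Scn7a, the sodium-sensing relative of the alpha subunits, was lower (-1.02, edgeR adjusted p = 0.0171).

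Over the 71 batch sums of at least 3 cells, after removal of batch means, Scn10a and Scn11a correlated at r = 0.67, Scn3a and Scn3b at 0.50, Scn1a and Scn9a at 0.47, Scn3a and Scn9a at 0.47 and Scn10a and Scn4b at 0.44. Scn3a correlated negatively with Scn10a (-0.46) and Scn11a (-0.45). The sums share gates and batches, so these coefficients are descriptions. The genes whose pattern was most like that of Scn10a were Slc37a2 (r = 0.76), Cgnl1 (0.74) and Htatip2 (0.72). For Scn11a they were Rab27b (0.77), P2rx3 (0.73) and Gna14 (0.71), of which P2rx3 encodes an ATP-gated channel of nociceptors. Those of Scn9a were Dnm3 (0.68), Pja1 (0.66) and Ppp1r1c (0.65), and those of Scn3a were Tnks (0.67), Atp2b2 (0.63) and Cbfb (0.62).

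Scn1a was most like Rprm (0.68), Foxp2 (0.60) and Mab21l3 (0.59) over these sums, none of which is of Pvalb+Vsnl1 cells. Scn4b had the closest match of all members, Parvb (0.84), followed by Nbl1 (0.77) and Anxa3 (0.75). Scn3b was most like Lad1 (0.62), which helps to define the Nmu+Lad1 gate, Zmiz1 (0.62) and Dalrd3 (0.60). Scn8a (Ppp6r2 at 0.58, Tarbp1 at 0.56 and Gsn at 0.52) and Scn2b (Igf2bp2, Ddx54 and Apobr, each at 0.53) had weaker matches.

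The counting of reads could not be checked for strand, since no source used here gives that setting. In the GRCr8 annotation uncharacterised genes overlap Scn10a and Scn9a, and a pseudogene overlaps Scn8a, so reads of an overlapping gene cannot be told apart from theirs.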

How the data were processed

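Single-neuron RNA of rat dorsal root ganglia was measured as UMI counts per gene and cell. The deposited tables hold the authors' raw UMI counts; the submitters' processing notes name UMI-tools, STAR, featureCounts (Subread), SAMtools and Rnor_6.0, with no version or strand setting in the sources used here. The 9 genes, the gates and all lists were chosen with earlier results of these data known. Counts were summed per gate and batch and tested with edgeR 4.0.16 (R 4.3.3; TMM factors, filterByExpr with a minimum count of 10, batch as a term), with DESeq2 1.42.0 as an alternative; tables and plots used Python 3.11.15. Each batch can hold several gates, so sums share a labelled batch, and the batch term is part of the reported values. Of the other channel-complex genes, up to 2 per direction with the largest fold change among those called were named in each comparison; results of some genes that meet this rule are not reported here.

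The design as first written left out cells that met 2 or more gates, which kept 12 Trpm8, 13 Th and 1 Pvalb+Vsnl1 cells. Such cells were therefore assigned to the gate with the highest mean log2(CPM + 10) for the reported values, and leaving them out became the other setting. Gates needed at least 3 sums, so 7 gates were each set against the mean of the other 6. Pvalb+Vsnl1 cells were fitted separately with at least 1 cell per sum against the other 7, a choice made after seeing the gate sizes. Batch totals of 3812280 to 26065847 UMIs limit precision mainly for Scn1a, Scn2b and Scn8a. On simulated data for the Clmp comparison (12027 genes), 36%, 68%, 90% and 94% of 50 genes changed 1.5-, 2-, 3- and 4-fold were recovered, with 9 false among 153 calls. For the Nmu+Lad1 comparison (12027 genes) these were 16%, 48%, 76% and 84%, with 5 false among 117 calls. Batch 21, a copy of batch 20, was left out. Intervals of shares are exact binomial, those of pooled counts exact Poisson. The share that 0 cells with a UMI allow was instead set at 3 counts of the total. After thinning, the exact upper limits were 12.3% for Scn1a in Th and 36.9% for Scn11a in Pvalb+Vsnl1 cells.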

Additional observations from a re-analysis of the deposited data

Results flagged for a closer look

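Of 45 groups of 4 to 10 sums, 11 had a sum far from the others by Dixon's test at the 95% level. A rate of 1 of 20 groups by chance holds only for normally distributed values, which CPM of few UMIs are not. The 11 groups are therefore not set against that rate. Where all other sums are at 0, as for Scn1a in Th cells, the flag is fixed in advance. All 11 were at the high end. Scn1a stood at 49.7 CPM in the Gzmbl3+Lpar3 sum of batch 25 (59 UMIs from 4 cells; next highest 1.19), at 15.9 CPM in the Nmu+Lad1 sum of batch 26 (30 UMIs from 5 cells; next 2.09) and at 2.04 CPM in the Th sum of batch 32 (2 UMIs; the others at 0). Scn11a was at 128 CPM in the Gzmbl3+Lpar3 sum of batch 24 (324 UMIs from 7 cells; next 42.8), at 59.0 CPM in the Trpm8 sum of batch 25 (next 16.6) and at 19.2 CPM in the Nmu+Lad1 sum of batch 29 (19 UMIs; next 4.38). In Pvalb+Vsnl1 cells its highest sum, 10.5 CPM in batch 28-3, rested on 1 UMI. Scn3a reached 149 CPM in the Nmu+Lad1 sum of batch 31 (157 UMIs from 3 cells; next 89.0), and Scn4b 224 CPM in the Gzmbl3+Lpar3 sum of batch 32 (351 UMIs; next 117). Scn2b reached 12.2 CPM in the Trpm8 sum of batch 20 (13 UMIs; next 2.07) and 4.25 CPM in the Nmu+Lad1 sum of batch 26 (8 UMIs; next 0.631).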

How the results depend on the processing

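Of 72 gene-by-gate tests 23 passed; 17 of these were lost under some alternative that leaves out no batch, 10 when some batch was left out, and 17 others were gained somewhere. Signs turned for Scn3a in Sst+Nppb cells (0.48 with 5 cells per sum, 0.091 with cells of 2 or more gates left out), Scn3b in Clmp cells (0.021 with those cells left out) and Scn9a in Ntsr1+Chrna3 cells (0.32 with 5 cells per sum, adjusted p = 0.044). These 2 settings had no Trpm8, Th or Nmu+Lad1 sums in the fit, so their reference was not that of the reported values. The part of this in the turned signs was not tested. Without the replicate block (the batch term) the calls of Scn10a in Clmp (-0.71) and Pvalb+Vsnl1 cells (-1.91) were lost and that of Scn11a in Gzmbl3+Lpar3 cells (1.11) gained; it changed no other call. Alternatives chosen after seeing the data were 1 cell per sum, the single Pvalb+Vsnl1 sum kept, the bias-adjusted deviance and Pvalb alone.

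Genes called, over all genes, moved by more than 1.5 times as follows. With 5 cells per sum, or cells of 2 or more gates left out, the reference held no Trpm8, Th or Nmu+Lad1 cells. Sst+Nppb cells (1439) had 495 with 5 cells per sum, 425 with cells of 2 or more gates left out and 590 after thinning. Trpm8 cells (1171) had 695 with bias-adjusted deviance, 538 at a gate level of 50 CPM and 330 after thinning. Clmp cells (1696) had 1077 with 1 cell and 2819 with 5 cells per sum, 2721 with bias-adjusted deviance and 873 after thinning. Th cells (64) had 149 with DESeq2, 271 with 1 cell per sum, 172 with bias-adjusted deviance, 404 with no filter, 123 with the single Pvalb+Vsnl1 sum and 28 after thinning. Ntsr1+Chrna3 cells (359) had 597 with DESeq2, 1153 with 5 cells per sum, 939 with bias-adjusted deviance, 821 at 50 CPM, 845 with no filter and 787 with the single sum. Gzmbl3+Lpar3 cells (2097) had 1150 with 5 cells per sum and 1165 after thinning, Nmu+Lad1 cells (1442) 254 at 50 CPM and 560 after thinning, and Pvalb+Vsnl1 cells (1303) 466 after thinning.

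Channel genes called were 5 (1 cell per sum), 1 (5 cells) and 1 (cells of 2 or more gates left out) in place of 3 in Sst+Nppb cells, and 5 (no filter) in place of 3 in Trpm8 cells. In place of 5, Clmp cells had 3 with 1 or 5 cells per sum, with cells of 2 or more gates left out or after thinning, 2 at 50 CPM and 1 with the single sum. In place of 1, Ntsr1+Chrna3 cells had 2 with 1 or 5 cells per sum, bias-adjusted deviance or 50 CPM, 0 with cells of 2 or more gates left out or at 10 CPM, and 3 with no filter. Gzmbl3+Lpar3 cells had 1 in place of 3 with 5 cells per sum or with cells of 2 or more gates left out. Nmu+Lad1 cells had 0 at 50 CPM, with 3 sums left, and 3 after thinning, in place of 5. Pvalb+Vsnl1 cells had 0 in place of 3 after thinning. A gene under the filter on low counts had no test and counts here as not called. After thinning this held for Scn1a and Scn11a in Pvalb+Vsnl1 cells and Scn11a in Nmu+Lad1 cells. With cells of 2 or more gates left out it held for Scn2b in Gzmbl3+Lpar3 cells. Called pairs without Pvalb+Vsnl1 cells were 46, against 9 with 5 cells per sum and 7 with cells of 2 or more gates left out. Those 2 settings kept only Clmp, Gzmbl3+Lpar3, Ntsr1+Chrna3 and Sst+Nppb cells, so fewer pairs could be tested and each gate had a smaller reference. Called pairs with Pvalb+Vsnl1 cells fell from 21 to 4 after thinning, where Scn1a and Scn11a had no test.

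Leaving out each batch in turn gave 1172 to 1489 genes in Sst+Nppb, 538 to 1305 in Trpm8, 1497 to 1834 in Clmp, 22 to 92 in Th, 224 to 473 in Ntsr1+Chrna3, 1613 to 2206 in Gzmbl3+Lpar3, 914 to 1584 in Nmu+Lad1 and 811 to 1455 in Pvalb+Vsnl1 cells, with 3 to 4, 2 to 3, 3 to 5, 0 to 0, 0 to 2, 1 to 5, 4 to 5 and 1 to 3 channel genes, 38 to 48 pairs and 11 to 21 pairs with Pvalb+Vsnl1. Leaving out cells of 2 or more gates, and 5 cells per sum, gave no value for Trpm8, Th, Nmu+Lad1 and Pvalb+Vsnl1 cells, and Pvalb alone gave too few sums. Thinning put 22 of 72 shares of cells within the unthinned interval, and a gate level of 50 CPM 70 of 72. Depth limits the genes of low level, and 31.7% of gated cells could have entered another gate.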
